A study of Mus musculus with 6 samples.

Results

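The choroid plexus epithelium genes are 33 genes that are used as markers of the epithelial cells of the choroid plexus, led by Ttr. All 33 were listed among the 23183 gene symbols of the FPKM (fragments scaled by transcript length and by library depth) tables, and all 33 passed the filter on low values (mean over the 6 libraries not under 1 FPKM), which left 14247 genes to test. The genes were chosen from measured values of these same libraries, because Ttr and related genes were high in 2 of the 3 KO libraries, so their differences between KO and WT mice are given as a description, with no test. The libraries came from cerebral microvessels of 3 WT mice (TEK-cre, Crif1+/+) and 3 TEKCRIF1 KO mice (TEK-cre, Crif1 flox/flox), 1 library per mouse, and the mice of both groups were C57BL/6 animals that carried the Cre. The Cre is driven by the Tek promoter, which is active in endothelial cells and known to be active in some blood cells too. The age of the mice is not given in the sources used here. Values are given below in the order of the mice, WT 1, WT 2, WT 3 and KO 1, KO 2, KO 3.

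The choroid plexus is a fold of vascularized tissue that hangs in the brain ventricles. Its cuboidal epithelium secretes cerebrospinal fluid by moving ions and water from blood to ventricle, and its tight junctions, not its leaky capillaries, form the barrier between blood and cerebrospinal fluid. The epithelial cells make and secrete transthyretin, the product of Ttr, in very large amounts, take up folate through the receptor encoded by Folr1, and keep the homeobox factor OTX2 into adult life. Microvessel preparations made from homogenized brain are meant to hold endothelial cells, pericytes and smooth muscle cells, and choroid plexus epithelium is not a wall cell of these vessels.

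Promoter windows of RefSeq (GRCm38.p6, 250 bases before to 50 bases after each annotated start) were found for 26 of the 33 genes. Because OTX2 is itself one of the 33, the windows were searched on both strands for TAATCC, the core that OTX2 and related homeodomain proteins bind, and, because FOXJ1 is another, for TGTTTAC, the forkhead core. The first, TAATCC, was found in the window of 1 of the 26 genes, Otx2 itself, compared with 8.14% of the 27025 genes with a window. TGTTTAC was found in the window of 1 of the 26, Prlr, compared with 4.05% of these genes. The windows of Otx2 (chr14:48665060-48665359, minus strand), Kcne2 (chr16:92292139-92292438, plus strand) and Aqp1 (chr6:55336049-55336348, plus strand) are shown because these genes were among those that ran most closely beside Ttr over the 6 libraries, and that of Prlr (chr15:10223656-10223955, plus strand) because this gene followed Ttr most loosely in its ratio to Ttr. Each is written 5′ to 3′ on the strand of the gene, with the matched letters in capitals. The match of Otx2 is on the opposite strand, so that its reverse complement stands in capitals, and begins at position -211 from the start, and that of Prlr begins at position -215. The windows of Kcne2 and Aqp1 held neither run of letters.
Otx2: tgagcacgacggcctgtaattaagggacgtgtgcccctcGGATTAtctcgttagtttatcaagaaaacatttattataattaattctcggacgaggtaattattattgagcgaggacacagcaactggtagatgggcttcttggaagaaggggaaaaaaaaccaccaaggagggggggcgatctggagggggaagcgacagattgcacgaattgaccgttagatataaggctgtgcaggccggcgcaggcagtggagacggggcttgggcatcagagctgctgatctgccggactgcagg
Kcne2: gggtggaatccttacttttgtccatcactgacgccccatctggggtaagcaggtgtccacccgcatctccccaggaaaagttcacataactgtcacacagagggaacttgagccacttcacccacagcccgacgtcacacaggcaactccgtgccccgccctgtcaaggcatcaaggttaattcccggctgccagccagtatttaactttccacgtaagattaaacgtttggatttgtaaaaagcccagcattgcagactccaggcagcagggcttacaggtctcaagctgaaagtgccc
Aqp1: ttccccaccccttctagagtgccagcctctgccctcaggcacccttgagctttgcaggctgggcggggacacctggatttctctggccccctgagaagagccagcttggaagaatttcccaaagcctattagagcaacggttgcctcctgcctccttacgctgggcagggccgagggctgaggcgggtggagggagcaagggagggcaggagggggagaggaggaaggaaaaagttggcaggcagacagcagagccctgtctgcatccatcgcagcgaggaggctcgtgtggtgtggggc
Prlr: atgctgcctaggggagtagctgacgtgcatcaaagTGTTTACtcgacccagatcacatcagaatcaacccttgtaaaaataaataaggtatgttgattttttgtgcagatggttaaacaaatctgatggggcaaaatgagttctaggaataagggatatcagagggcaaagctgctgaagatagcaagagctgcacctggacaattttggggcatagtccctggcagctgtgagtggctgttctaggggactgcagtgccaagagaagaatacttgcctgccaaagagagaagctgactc

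The targeted gene was lower in every KO library. Gadd45gip1, which encodes the mitochondrial ribosome factor CRIF1, was at 18.8, 15.3 and 16.5 FPKM in WT mice and at 10.8, 7.54 and 10.4 FPKM in KO mice (difference -0.77 on the log2(FPKM + 1) scale, SE 0.22, limma p = 0.00534, adjusted p = 0.841, exact permutation p = 0.1, the smallest that 3 mice against 3 can give). With adjustment over all genes tested, limma called 0 of 14247 genes at a threshold of 0.05 (0.0%), while 838 were under that threshold before adjustment. The endothelial markers Pecam1 and Cldn5 were at 72.1 ± 17.7 and 576 ± 121 FPKM in WT mice and at 76.5 ± 15.7 and 520 ± 90.9 FPKM in KO mice (SD, n = 3). Cdh5, vascular endothelial cadherin, was at 86.7, 92.4 and 91.3 FPKM in WT mice and at 50.8, 42.5 and 38.1 FPKM in KO mice (difference -1.03, SE 0.19, limma adjusted p = 0.841), with no overlap between the groups. Of 16 endothelial genes 7 had higher and 9 lower means in KO mice (median difference -0.11), where 49.2% of all genes tested had higher means. The estimated depth was 6400000 to 11500000 fragments per library. In WT 3, 9 pituitary and pineal genes summed to 2507 FPKM, compared with 5.05 to 84.5 FPKM in the other 5 libraries, so values are also given without this library where it matters.

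Transcripts of the choroid plexus epithelium were present in every library, WT mice included, and were more abundant in KO 1 and KO 3 than in any other library. The 33 genes together held 4619, 3930 and 4093 FPKM in WT mice, and 11257, 4118 and 14007 FPKM in KO mice. They made up 1.07, 0.883 and 0.963% of all FPKM in the WT libraries and 2.09, 1.08 and 3.12% in the KO libraries. KO 1 and KO 3 were thus high, and KO 2 stood at the level of the WT mice. Ttr was the 5th, 7th and 4th most abundant gene in the WT libraries, the 5th in KO 1 and KO 2, and the most abundant of all genes in KO 3. In bulk tissue, more epithelial cells in a preparation and more RNA per cell cannot be told apart.

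In 32 of the 33 genes KO 1 and KO 3 were the 2 highest of the 6 libraries, as for Ttr, a pattern held by 13.2% of all genes tested; this count rests on the same contrast that chose the genes. The exception was Foxj1. The means of 32 of the 33 genes were higher in KO than in WT mice, compared with 49.2% of all genes tested. The median difference of the 33 genes was 0.85 on the log2(FPKM + 1) scale, compared with -0.006 over all genes tested. It fell to 0.39 without KO 3, was 0.76 without KO 1 and 1.35 without KO 2, and was 0.96 without WT 3. The heat map of the 33 genes shows the same pair of dark columns in every role.

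**Figure D1:**
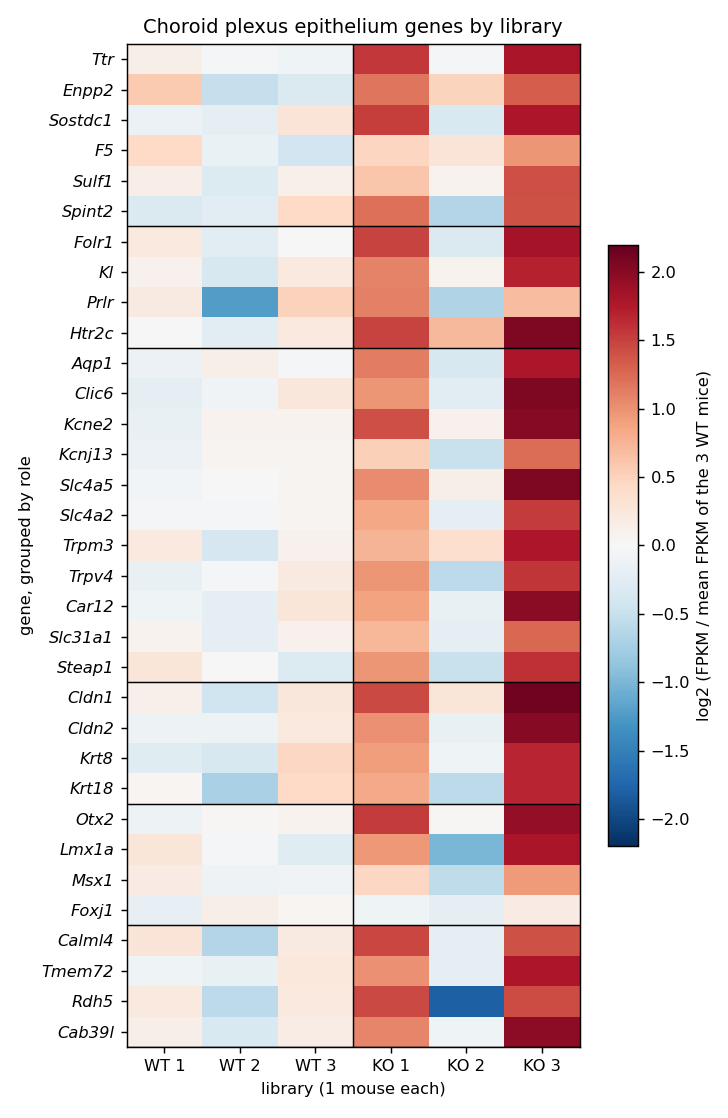
Heat map of the 33 choroid plexus epithelium genes (rows, grouped by role) in the 6 libraries (columns), coloured by the log2 ratio of FPKM to the mean FPKM of the 3 WT mice. KO 1 and KO 3 are red in all rows but Foxj1, while KO 2 is pale or blue in most rows.

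Among the carriers and secreted proteins, all 6 genes followed Ttr, with differences of 0.5 to 1.11 on the log2 scale. Ttr, the carrier of thyroid hormone and, with retinol-binding protein, of retinol, was at 3093, 2722 and 2628 FPKM in WT mice and at 8262, 2771 and 9787 FPKM in KO mice. KO 1 and KO 3 lay far above the WT mice, whereas KO 2 lay between WT 2 and WT 1, so the groups overlapped. The group means were 2815 ± 245 and 6940 ± 3690 FPKM (SD, n = 3; 2.47-fold), and the SE of the log2 difference of 1.11 was 0.52. The difference of Ttr was 0.77 without KO 3, 1.68 without KO 2 and 0.63 under quantile normalization.

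Enpp2, which encodes autotaxin, the secreted enzyme that makes lysophosphatidic acid, was at 382, 181 and 205 FPKM in WT mice and at 580, 359 and 642 FPKM in KO mice. Here KO 2 was higher than WT 2 and WT 3 and lower than WT 1. Sostdc1, a secreted antagonist of BMP and Wnt signals, was at 83.2, 78.4 and 111 FPKM in WT mice and at 262, 72.1 and 311 FPKM in KO mice. It resembled Ttr in KO 1 and KO 3, and KO 2 was below all WT mice. Sulf1, a heparan sulfate sulfatase, Spint2, a serine protease inhibitor, and F5, coagulation factor V, were 1.53-fold to 1.86-fold higher in the KO mean. F5 was the least abundant of the 6, at 3.63 ± 1.14 FPKM in WT and 5.54 ± 1.42 FPKM in KO mice (SD, n = 3).

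The 4 receptors followed Ttr, and 1 of them had no overlap between the groups. Folr1, the folate receptor of the epithelium, was at 149, 109 and 129 FPKM in WT mice and at 362, 103 and 457 FPKM in KO mice. Htr2c, the serotonin receptor 2C, was at 20.1, 17.3 and 23.5 FPKM in WT mice and at 57.2, 33.4 and 84.4 FPKM in KO mice. Htr2c was the clearest of the genes with no overlap: KO 2 was also above every WT library, and its log2 difference of 1.39 (SE 0.31) was the largest of the 33. All KO libraries lay above all WT libraries for 5 of the 33 genes (Htr2c, Kcne2, Slc4a5, Trpm3 and Cldn1), compared with 5.37% of all genes tested, and all KO libraries lay below all WT libraries for 0 of the 33, compared with 5.7%. Both counts follow in large part from the choice of the genes, so nothing is read from them. For Kcne2 and Cldn1 the separation was slight, since KO 2 was at 38.2 and 15.8 FPKM and the highest WT library at 37.7 and 15.7 FPKM. Kl, which encodes klotho, the co-receptor of FGF23, was at 23.4 ± 4.57 FPKM in WT and 49.9 ± 25.2 FPKM in KO mice (SD, n = 3), with KO 2 inside the WT range. Prlr, the prolactin receptor, was low throughout, at 2.76, 1.03 and 3.43 FPKM in WT mice and 5.19, 1.52 and 3.85 FPKM in KO mice. KO 3 exceeded WT 3 by little, and Prlr was 1 of the 3 genes with their highest value in KO 1.

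**Figure D2:**
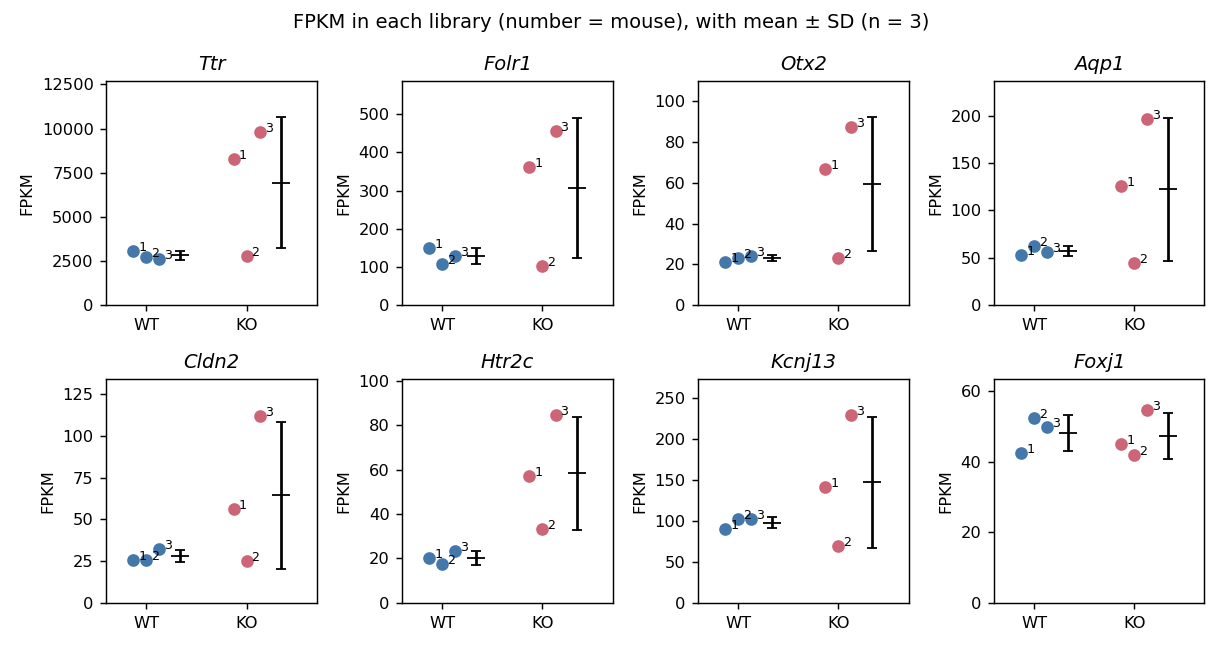
FPKM (vertical axes, from 0) of 8 of the genes in each WT (blue) and KO (red) library, with the mouse number beside each point and the mean ± SD of the 3 mice at the right. KO 1 and KO 3 lie above the other libraries in every panel but that of Foxj1, and KO 2 lies among or below the WT mice except for Htr2c.

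The 11 channels, pumps and transporters, the largest group, all followed Ttr, with a median difference of 0.85 on the log2 scale. Aqp1, the water channel of the apical membrane, was at 52.7, 62.8 and 56.6 FPKM in WT mice and at 126, 45.0 and 196 FPKM in KO mice. KO 2 was below all 3 WT mice, and the KO mean was 2.13-fold the WT mean. Kcne2, a subunit of potassium channels, was at 31.7, 37.7 and 37.5 FPKM in WT mice and at 94.8, 38.2 and 142 FPKM in KO mice. Slc4a5, a sodium bicarbonate cotransporter, was at 15.5, 16.2 and 16.7 FPKM in WT mice and at 33.1, 17.7 and 66.9 FPKM in KO mice. KO 2 was above the WT mice here, but by little compared with KO 1 and KO 3.

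Slc4a2, the anion exchanger AE2, was at 62.9, 64.1 and 67.7 FPKM in WT mice and at 117, 56.4 and 188 FPKM in KO mice. Clic6, a chloride intracellular channel protein, was at 42.7, 47.0 and 59.3 FPKM in WT mice and at 97.8, 42.1 and 206 FPKM in KO mice. In both genes KO 2 was below the WT mice. Kcne2 and Clic6 lie near each other on chromosome 16 (chr16:92292389-92298129 and chr16:92485736-92541243, GENCODE M21, GRCm38), and the 33 genes lie on 15 chromosomes in all. Trpm3, a cation channel whose introns hold the microRNA gene Mir204, was at 46.5, 31.1 and 43.2 FPKM in WT mice and at 67.8, 52.2 and 138 FPKM in KO mice. Kcnj13, the inward rectifier potassium channel Kir7.1, showed the smallest difference of the group, 0.42 (SE 0.36), and KO 2 was its lowest library at 69.7 FPKM. This difference was 0.02 without KO 3 and 0.87 without KO 2. The remaining genes of the group were Car12, a membrane-bound carbonic anhydrase, Trpv4, an osmosensitive cation channel, Slc31a1, the copper importer CTR1, and Steap1, a metalloreductase family member. They differed by 0.89, 0.64, 0.6 and 0.7 on the log2 scale, and KO 3 was at 90.4, 45.4, 134 and 80.8 FPKM. Without KO 3 they differed by 0.36, 0.2, 0.27 and 0.25, and without KO 2 by 1.41, 1.23, 0.99 and 1.27.

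The junction proteins and keratins all followed Ttr, with differences of 0.71 to 1.25. Cldn1, a sealing claudin of the epithelial tight junction, was at 14.3, 9.70 and 15.7 FPKM in WT mice and at 36.0, 15.8 and 57.7 FPKM in KO mice. Its ratio of KO 3 to the WT mean, 4.36, was the highest of the 33 genes. Cldn2, a claudin that forms pores for cations and water, was at 25.8, 25.8 and 32.2 FPKM in WT mice and at 56.2, 24.9 and 112 FPKM in KO mice. Neither is the main claudin of brain endothelium, Cldn5, which did not follow Ttr (563, 702 and 462 FPKM in WT and 598, 420 and 540 FPKM in KO mice). Krt8 and Krt18, the paired keratins of simple epithelia, which lie near each other on chromosome 15, were at 13.8 ± 4.52 and 32.8 ± 12.3 FPKM in WT mice and at 27.6 ± 15.6 and 62.0 ± 41.5 FPKM in KO mice (SD, n = 3). In both genes WT 3 was the highest of the WT libraries and lay under KO 1.

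The transcription factors were the least uniform group. Otx2, the homeobox factor of the choroid plexus, was at 21.3, 23.2 and 24.2 FPKM in WT mice and at 66.9, 23.3 and 87.5 FPKM in KO mice. KO 2 lay among the WT mice, and KO 1 and KO 3 stood 2.92-fold and 3.83-fold above the WT mean. Lmx1a, a LIM-homeobox factor of the roof plate and cortical hem, from which the choroid plexus arises, was at 2.76 ± 0.511 FPKM in WT and 5.43 ± 4.1 FPKM in KO mice (SD, n = 3), and its lowest value rests on an estimated 29 fragments. Msx1, a homeobox factor of the dorsal midline, differed by 0.28 (SE 0.33), and by -0.05 without KO 3. Foxj1, the master regulator of motile cilia, was at 42.4, 52.3 and 49.7 FPKM in WT mice and at 45.0, 42.0 and 54.5 FPKM in KO mice. Its groups overlapped and its difference was -0.03 (SE 0.20). Foxj1 is also a gene of the ciliated ependymal cells that line the ventricles.

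The other 4 genes followed Ttr. Calml4, a calmodulin-like protein, was at 51.3, 26.9 and 48.4 FPKM in WT mice and at 117, 36.4 and 111 FPKM in KO mice. Cab39l, a scaffold protein of the STK11 kinase complex, was at 44.0, 31.9 and 45.4 FPKM in WT mice and at 85.5, 37.8 and 158 FPKM in KO mice. In both genes KO 2 lay above WT 2 and below the other 2 WT mice. Tmem72, which encodes a membrane protein, was at 17.4 ± 2.67 FPKM in WT and 36.5 ± 22.2 FPKM in KO mice (SD, n = 3). Rdh5, a retinol dehydrogenase, was at 7.64, 4.42 and 7.61 FPKM in WT mice and at 18.0, 1.88 and 17.8 FPKM in KO mice. KO 2 was the lowest library for Rdh5, with an estimated 15 fragments.

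The values of the 33 genes in the single KO libraries are those that chose the genes, so their spread follows in part from the choice and is given as a description. The SD of the 3 KO mice was greater than that of the 3 WT mice for all 33 genes (63.9% of all genes tested), and nothing is read from this count. Against the WT mean, the genes stood between 0.934-fold and 2.94-fold in KO 1 (median 2.01), between 0.287-fold and 1.65-fold in KO 2 (median 0.871), and between 1.13-fold and 4.36-fold in KO 3 (median 3.21). KO 1 was above all 3 WT libraries for 32 genes and KO 3 for 33, compared with 31.1 and 29.2% of all genes tested. KO 2 was above all WT libraries for 5 genes, within their range for 12 and below it for 16, compared with 28.7, 38.6 and 32.6% of all genes tested. Gadd45gip1 was also lowest in KO 2 among the KO mice, and it was below all WT mice in each of them.

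**Figure D3:**
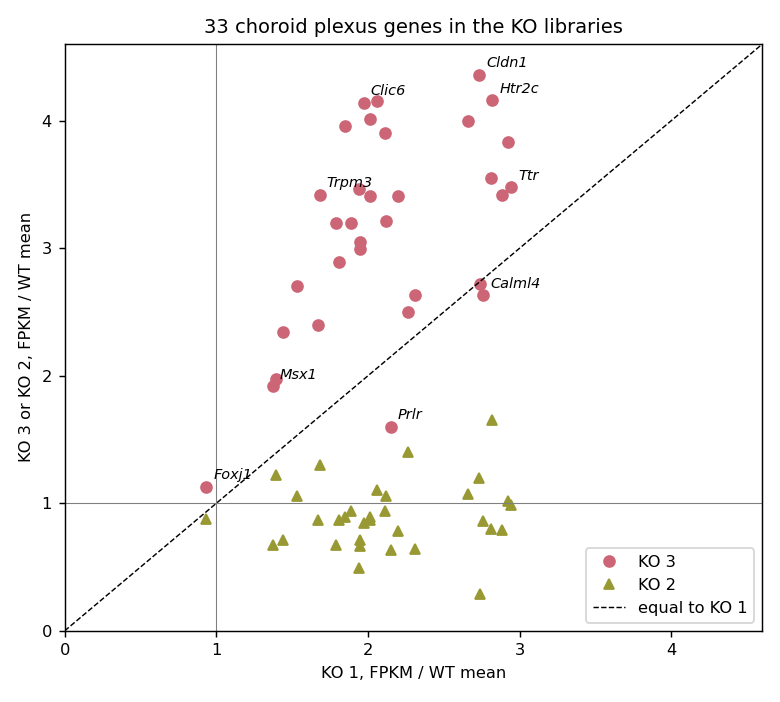
Each of the 33 genes by its FPKM over the WT mean in KO 1 (horizontal axis) and in KO 3 (circles) or KO 2 (triangles; vertical axis). Most circles lie above the dashed line of equality with KO 1 and above 3 (median 3.21), and the triangles scatter around 1 (median 0.871).

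KO 3 was the highest of the 6 libraries for 30 of the 33 genes and KO 1 for 3 (Prlr, Calml4 and Rdh5). The log2 ratio of KO 3 to KO 1 ran from -0.43 for Prlr to 1.1 for Car12, with a median of 0.61. For Ttr the ratio was 1.18-fold and for Enpp2 1.11-fold, whereas it was 2.1-fold for Clic6, 2.03-fold for Trpm3 and 2.02-fold for Slc4a5. The genes thus did not stand in a single proportion between these 2 libraries. The ratio was larger for longer transcripts (Spearman's rho 0.40 across the 33 genes, and 0.38 across 32 genes without Tmem72, whose annotated transcript is the longest). Over 13726 tested genes with an annotated length, rho was 0.13. These points come from the same 2 libraries and are not independent, and the part of transcript length or RNA quality in the ratio was not tested.

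**Figure D4:**
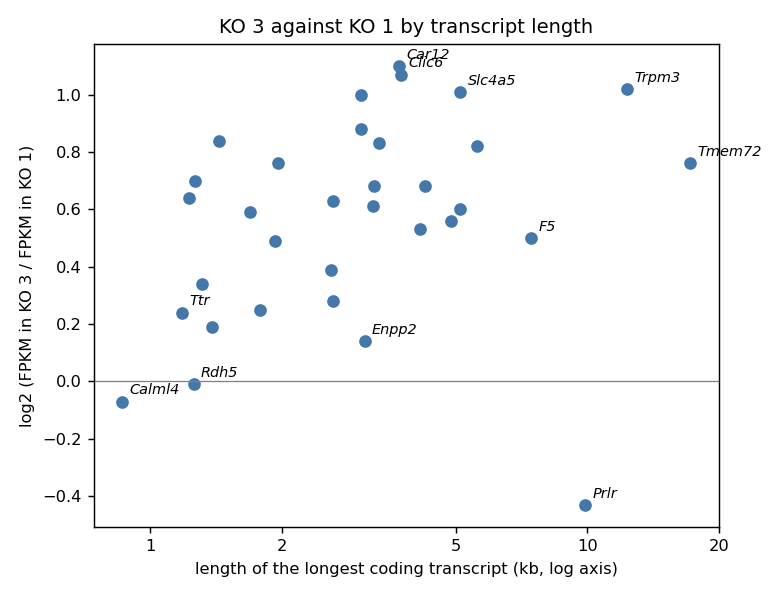
Log2 ratio of FPKM in KO 3 to FPKM in KO 1 (vertical axis) against the length of the longest coding transcript (log axis, kb) for the 33 genes. The median of the ratio is 0.61, Prlr lies lowest at -0.43 in spite of a long transcript, and Car12 lies highest at 1.1.

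Within the WT mice, only the highest library of each gene was compared with that of Ttr. Ttr was highest in WT 1, and so were 11 of the 33 genes with Ttr itself included, compared with 35.9% of all genes tested. WT 3 was the highest WT library for 18 genes and WT 2 for 4, compared with 33.9 and 30.1% of all genes tested. Under quantile normalization, which moved the highest WT library of Ttr to WT 3, the number was 20 of the 33, compared with 33% of all genes tested.

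The ratio of each gene to Ttr was most constant for Otx2, which stood at 0.688, 0.852 and 0.92% of the FPKM of Ttr in WT mice and at 0.81, 0.841 and 0.895% in KO mice (coefficient of variation over the 6 libraries 9.78%). Folr1 (10.9%) and Kcne2 (13.4%) came next. The coefficient of variation of the 32 genes had a median of 24.5% and reached 51.2% for Prlr, whereas the median over all genes tested was 53.4%. Foxj1, at 47.5%, stood at 1.37 to 1.92% of Ttr in WT mice, at 1.52% in KO 2, and at 0.544 and 0.557% in KO 1 and KO 3. Its own level differed by -0.03 on the log2 scale, so the low ratios reflect the height of Ttr in KO 1 and KO 3. Ranked by the distance of their log2 values, each centred on its mean over the 6 libraries, from those of Ttr, Otx2 was 1st, Folr1 2nd, Kcne2 4th, Aqp1 7th and Sostdc1 10th of all genes tested, and Foxj1 was 4694th. Of the 50 genes nearest to Ttr 19 were among the 33, and of the nearest 250, 28, where 14247 genes were tested. The 33 genes were chosen from measured values of these same libraries, so nothing is read from these ratios, ranks and counts.

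The 10 genes nearest to Ttr that are not among the 33 were Arsg, Fhad1, Epn3, Serpinb1b, Hspb6, Kctd14, Sugct, Pcolce2, Elovl7 and Tuba1c, at distances of 0.4 to 0.62. Arsg, a lysosomal sulfatase, was the nearest, at 17.3, 15.0 and 15.6 FPKM in WT mice and at 38.4, 17.3 and 64.9 FPKM in KO mice. Hspb6, a small heat shock protein, was at 15.2, 13.7 and 17.5 FPKM in WT mice and at 33.9, 14.3 and 46.0 FPKM in KO mice. Pcolce2, an enhancer of procollagen processing, was at 13.3, 9.86 and 15.7 FPKM in WT mice and at 33.7, 15.1 and 42.9 FPKM in KO mice. All of these were far below Ttr in level and shared the height of KO 1 and KO 3.

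A further list of 52 choroid plexus genes that are not among the 33 was read beside them, of which 48 were in the tables and 44 were tested. Of the 44 genes, 26 (59.1%) had KO 1 and KO 3 as their 2 highest libraries, compared with 13.2% of all genes tested, and the median difference was 0.37. This median was 0.19 without KO 3 and 0.73 without KO 2. Limma gave an unadjusted p under 0.05 for 9 genes that were higher in KO mice, where 2.77% of all genes tested did so, and for 2 that were lower, where 3.11% did. Of the 9, Cox8b and Gmnc had WT means under 1 FPKM and passed the filter on low values only through the KO mice, so that they had to differ, and the other 7 had WT means above it. Both are also among the 26 genes and in the median of 0.37, as is Otx2os1, which overlaps Otx2. None of the 44 passed after adjustment over all genes (limma, adjusted p = 0.841 for each of the 11). Among the 39 genes of the list that averaged 5 FPKM or more, 4 were higher and 2 lower at an unadjusted p under 0.05, where 2.81 and 3.57% of all 9959 genes at that level were. KO 1 and KO 3 were the 2 highest libraries for 22 of these 39, compared with 16.2% of genes at that level. Their median difference was 0.3. Leaving out 1 library changed the number of 11 to 4 without WT 2, 7 without WT 1 or without KO 3, and 25 without KO 2. Gmnc, the geminin family regulator of multiciliated cells, was at 0.609, 0.499 and 0.708 FPKM in WT mice and at 3.48, 1.91 and 3.63 FPKM in KO mice, a difference of 1.29 (SE 0.35) from values near the floor of detection. Otx2os1, the transcript on the strand opposite to Otx2, was at 1.2, 1.92 and 1.65 FPKM in WT mice and at 7.25, 2.87 and 5.99 FPKM in KO mice. Vat1l was at 45.0, 45.3 and 69.0 FPKM in WT mice and at 102, 50.5 and 248 FPKM in KO mice, so that its groups overlapped. Cox8b, a subunit of cytochrome c oxidase, was listed at 0 in the 3 WT libraries and at 9.04, 1.66 and 3.47 FPKM in KO mice, and no fold is given against a group at 0.

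Among the transporters of the list, Slc12a2, the cotransporter NKCC1, was at 28.0, 26.2 and 29.0 FPKM in WT mice and at 37.1, 34.5 and 55.0 FPKM in KO mice, with no overlap (difference 0.56), and Slc4a10, a sodium-dependent bicarbonate transporter, at 39.3, 24.7 and 40.3 FPKM and at 52.2, 45.8 and 80.3 FPKM (difference 0.75). Slc13a4, a sulfate transporter, and Slc22a8, the organic anion transporter OAT3, did not follow Ttr, with differences of -0.16 (SE 0.31) and -0.41 (SE 0.25). The 3 most abundant genes of the list, the cystatin Cst3, the growth factor Igf2 and its binding protein Igfbp2, did not follow Ttr, with differences of -0.20, -0.25 and -0.22. These genes are known to be expressed by other brain or meningeal cells as well. The part of other cells in the values of the list, for genes that followed Ttr or did not, was not tested. Rbp4, the plasma retinol carrier, was at 30.5, 44.2 and 10.6 FPKM in WT mice and 9.16, 11.9 and 13.7 FPKM in KO mice (difference -1.03, SE 0.42), with WT 3 among the KO mice. Cdh1, epithelial cadherin, was at 39.2, 45.0 and 32.1 FPKM in WT mice and at 15.9, 23.6 and 31.5 FPKM in KO mice (difference -0.73, SE 0.26).

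Genes of other cells were counted in the same way, with no test between lists, beside the 13.2% of all genes tested that followed Ttr. Of 23 ependymal genes, 6 (26.1%), a share above that of all genes, followed Ttr and 0 had an unadjusted p under 0.05, with a median difference of 0.11, and their summed level was 397, 399 and 389 FPKM in WT mice and 589, 312 and 450 FPKM in KO mice. Of 16 endothelial genes 1 followed Ttr (6.25%; Emcn), of 5 genes of pigment epithelium 1 did (Rlbp1), and none of the tested pericyte, smooth muscle, meningeal fibroblast, astrocyte, neuron, oligodendrocyte, microglia, erythroid or pituitary and pineal genes did. Of 7 smooth muscle genes 6 had higher means in KO mice, with a median difference of 0.37, equal to that of the other choroid plexus genes, and 0 had an unadjusted p under 0.05. Their level was highest in WT 1 and KO 1, at 867, 396 and 418 FPKM in WT and 1084, 415 and 598 FPKM in KO mice in sum. The 12 meningeal fibroblast genes summed to 20433, 17674 and 10851 FPKM in WT mice and to 12266, 9654 and 11053 FPKM in KO mice. Most of this sum was Ptgds, at 17642, 15337 and 9086 FPKM in WT mice and at 10577, 8394 and 9435 FPKM in KO mice. In the sum and in Ptgds, WT 3, the library with the pituitary genes, lay among the KO mice. All 12 genes had lower means in KO mice, with a median difference of -0.48, and 3 of them (Col1a1, Foxc2 and Aldh1a2) had an unadjusted p under 0.05 and an adjusted p of 0.841 in limma. For 4 of the 12, these 3 included, every KO library lay below every WT library, WT 3 too, compared with 5.7% of all genes tested. Lower means were also seen in other lists. The median difference was -0.48 for oligodendrocyte, -0.35 for astrocyte and -0.19 for pericyte genes, with 3 of 7, 3 of 8 and 2 of 9 genes lower at an unadjusted p under 0.05, compared with 3.11% of all genes tested. For erythroid, neuron and microglia genes it was -0.27, -0.24 and -0.22, with 1 of 6, 1 of 10 and 0 of 7 genes lower at that threshold. The part of the composition of the preparations in the values of the 33 genes was not tested.

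**Figure D5:**
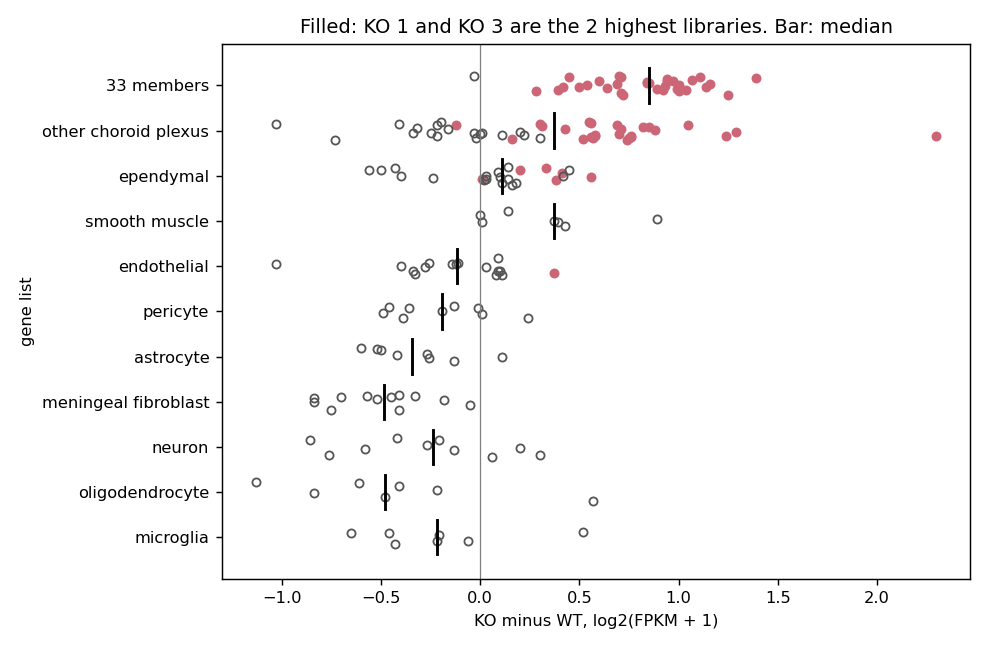
Difference of KO minus WT mice on the log2(FPKM + 1) scale (horizontal axis) for each tested gene of 11 lists (rows), with a bar at the median and filled circles for genes whose 2 highest libraries were KO 1 and KO 3. The 33 genes are filled but for Foxj1 (median 0.85), 26 of 44 other choroid plexus genes are filled (median 0.37), and few are filled elsewhere.

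Some of the values may hold fragments of neighbouring genes, since 15 of the 33 genes overlap another annotated gene, 7 on their own strand and 11 on the other. Named protein-coding or antisense partners are given here as examples. Otx2, Folr1, Kcnj13, Slc4a2, Slc31a1 and Cab39l overlap Otx2os1, Anapc15, Gigyf2, Fastk, Cdc26 and Cdadc1 on the other strand, and Rdh5 overlaps Bloc1s1 on its own strand. Htr2c, Trpm3, Clic6, Prlr and F5 also overlap genes on their own strand, which for Htr2c and Trpm3 include microRNA genes. The library kit was directional, but whether strand was used to assign fragments is not given in the sources used here. Otx2 and Otx2os1 in particular cannot be told apart as separate changes.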

How the data were processed

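Cerebral microvessels were isolated from 3 WT and 3 TEKCRIF1 KO mice, and 1 library per mouse was sequenced as paired ends with a directional kit. The authors trimmed the reads, mapped them with TopHat and deposited FPKM values per gene symbol for each library. The submitters' processing notes name mm10, and the program that gave FPKM and any scaling between libraries are not given in the sources used here. The 33 genes and the other gene lists were chosen with earlier results of these data known, so nothing here is independent evidence of a direction.

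FPKM values were tested as log2(FPKM + 1) with limma 3.58.1 (R 4.3.3, trended variance) for genes whose mean was 1 FPKM or more, with Benjamini-Hochberg adjustment over the 14247 genes tested. The script was tested on simulated data. Single genes of interest were also compared with an exact two-sided permutation test. A gene was said to follow Ttr when its 2 highest libraries were those of Ttr. Distances to Ttr are Euclidean, over the 6 libraries. The text names the 33 genes, Gadd45gip1, Pecam1, Cldn5, the 10 nearest other genes to Ttr and, of the other choroid plexus genes, the 3 most abundant and the 5 largest differences. Slc12a2, Slc4a10, Slc13a4, Slc22a8, Cdh1, Cdh5, Emcn, Rlbp1, Ptgds, Col1a1, Foxc2, Aldh1a2, Pomc, Gh, Tph1 and Aanat were named after their values were seen.

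Depth was estimated from the spacing of the smallest FPKM values and annotated transcript lengths. The floor, taken as 3 fragments on a 1 kb transcript, was 0.26 to 0.47 FPKM and accounts for counting error alone. Transcript lengths, positions and overlaps were taken from GENCODE M21 (GRCm38, which is mm10), and promoter windows from RefSeq. Python 3.11.15 with pandas 2.3.3, numpy 2.4.6 and scipy 1.17.1 was used. Alternatives were no filter, a filter at 5 FPKM, a pseudocount of 0.1, median scaling, quantile normalization, limma without the trend, a replicate block and leaving out each library in turn. A correction of each library for transcript length and GC content (loess, span 0.3) was added after the data had been seen.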

Additional observations from a re-analysis of the deposited data

How the results depend on the processing

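The median difference of the 33 genes kept its direction under every alternative run, at 0.81 to 0.91 with other filters, pseudocounts, scalings and variance models and at 0.39 to 1.35 when 1 library was left out (lowest without KO 3, highest without KO 2). Over 14 alternatives, 5 of 459 values of single members changed sign, 3 of Foxj1, 1 of Msx1 (-0.05 without KO 3) and 1 of Rdh5 (-0.003 without KO 1). Single values could move far, since the spread between KO mice is wide: Rdh5, at 0.45, was at 1.36 without KO 2. Gadd45gip1 was lower throughout, at -0.86 to -0.62 when 1 library was left out. The number of other choroid plexus genes with an unadjusted p under 0.05, 11, was 6 with a mean of at least 5 FPKM, where fewer genes were tested, and 4 to 25 when 1 library was left out. Over all genes the number was 450 to 1871 when 1 library was left out, compared with 838, and 0 to 4 passed after adjustment. The median of the other choroid plexus genes was 0.19 without KO 3 and 0.73 without KO 2, and its cause was not tested.

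Under quantile normalization 1 of the 33 genes and 1 of the other choroid plexus genes followed Ttr, 20 of the 33 had the same highest WT library as Ttr, and 0 of the 10 nearest genes stayed among the nearest. This method sets a value by its rank, and Ttr, near the top of every library, then had KO 3 and WT 3 as its highest libraries. KO 1 and KO 3 themselves were still the 2 highest libraries for 30 of the 33 genes and for 21 of the other choroid plexus genes, compared with 10.9% of all genes. With each library corrected for length and GC content, all 33 genes followed Ttr, Foxj1 included, and 5 of the 10 nearest genes stayed.

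The replicate numbers of the titles did not pair the mice. The deviations from the group means correlated at 0.04, 0.03 and 0 for same-numbered WT and KO libraries, where all WT and KO pairs ran from -0.07 to 0.05. With a replicate block 871 genes and 14 other choroid plexus genes had an unadjusted p under 0.05 in limma, 0 after adjustment. The column headers number the libraries differently again. Depth limits Rdh5, Lmx1a and Prlr most, with 15, 29 and 89 estimated fragments in their lowest library, and the absolute scale of these estimates depends on annotated lengths.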

Other observations

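Transcripts of 2 small midline glands, the pituitary and the pineal, stood out in single libraries or pairs of libraries. Pomc and Gh were at 1413 and 522 FPKM in WT 3, and at 18.8 and 48.6 FPKM in KO 3. In the other 4 libraries Pomc was at 3.35 to 6.51 FPKM and Gh was listed at 0. The pineal gene Tph1 was at 5.63 FPKM in KO 1 and at most 0.318 FPKM in the other 5 libraries. Aanat, another pineal gene, was at 2.83 FPKM in KO 1 and 0.612 FPKM in KO 3 and at most 0.14 FPKM in the other 4 libraries, so that its 2 highest libraries were those of Ttr, at levels too low for the comparison between groups. Of the 2 libraries high for the choroid plexus genes, KO 1 thus held the highest values of Tph1 and Aanat. KO 3 held the highest of Pomc and Gh after WT 3. WT 3 itself, with the most pituitary transcripts, was not high for the choroid plexus epithelium genes. They made up 0.963% of all FPKM in WT 3, 1.07% in WT 1, 0.883% in WT 2 and 1.08% in KO 2. Their share was 2.09% in KO 1 and 3.12% in KO 3. The part of the pituitary and the pineal in the choroid plexus values was not tested.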
